A study of Arabidopsis thaliana with 12 samples.

Results

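The glutathione transferases of Arabidopsis thaliana were examined in seedlings that make an intact or a mutated form of the transcript elongation factor TFIIS. They were taken as the rows of the deposited gene table with a name of the form GST followed by F, L, T, U or Z and a number, which gave 46 of 32705 rows; 1 further locus that fits the pattern was not analysed here. The 46 rows carry 48 gene names, because GSTF9 shares a row with GSTF10 and GSTU1 shares a row with GSTU2; GSTF8 shares its row with AT2G47720. By class letter, 27 rows are tau (GSTU), 11 phi (GSTF), 3 lambda (GSTL), 3 theta (GSTT) and 2 zeta (GSTZ).

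Glutathione transferases are soluble enzymes that join the tripeptide glutathione to reactive or toxic molecules, after which plants move the conjugates into the vacuole. Tau and phi enzymes are plant classes known for detoxification and for transcripts that respond to hormones, pathogens and chemicals, while theta and zeta enzymes also occur in animals. Lambda enzymes carry a cysteine in place of the catalytic serine and act as thiol transferases, which reduce mixed disulfides with glutathione, rather than as conjugating enzymes.

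All seedlings were of ecotype Columbia, 10 days old and of the tfIIs-1 background (SALK_056755), which the mock seedlings share. The 4 conditions were 2 mM estradiol or ethanol (mock) for 24 h in a line with inducible GFP-TFIIS and in a line with inducible GFP-TFIISmut; they are called TFIIS induced, TFIIS mock, TFIISmut induced and TFIISmut mock. Whole seedlings were used. The labels state neither what drives the transgene nor whether each line descends from a single plant. Each condition has 3 libraries, but the table holds 1 value per gene and condition, here called a pool, so no value below has an error, no comparison was tested against the spread between seedlings, and read depth is unknown. Levels are FPKM, counts of fragments divided by the length of the transcript and the size of the library, and were read as such from the values. The line and treatment of each column were read from abbreviated column names. TFIIS itself (AT2G38560), the induced gene, was at 21.1 FPKM in TFIIS mock, 742 FPKM in TFIIS induced, 17.6 FPKM in TFIISmut mock and 87.0 FPKM in TFIISmut induced.

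Differences are given in log2(FPKM + 1), a scale that understates the change of genes with low FPKM. A gene was counted as higher or lower when that difference reached 1, called 2-fold here, and the larger of its levels was at least 5 FPKM. Of the 46 rows, 39 reached 5 FPKM in at least 1 pool and 7 did not.

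The family as a whole was most abundant in TFIISmut induced. Its summed level was 6862 FPKM in TFIIS mock, 6066 FPKM in TFIIS induced, 5739 FPKM in TFIISmut mock and 16684 FPKM in TFIISmut induced, which is 0.762%, 0.591%, 0.595% and 1.58% of the sum over all genes. The first 3 pools thus lay close together and the fourth was 2.91-fold above TFIISmut mock. Phi rows held most of the added level: their sum was 3903, 3197, 2829 and 11790.3 FPKM in the same order of pools. Tau rows summed to 2529.2, 2478, 2529.6 and 4357 FPKM. The phi share of the family sum was 49.3% in TFIISmut mock and 70.7% in TFIISmut induced. GSTF2, GSTF6, GSTF7 and the row of GSTF9 and GSTF10 made up 79.5% of the net gain between these pools, and GSTU19 a further 8.56%.

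**Figure D1:**
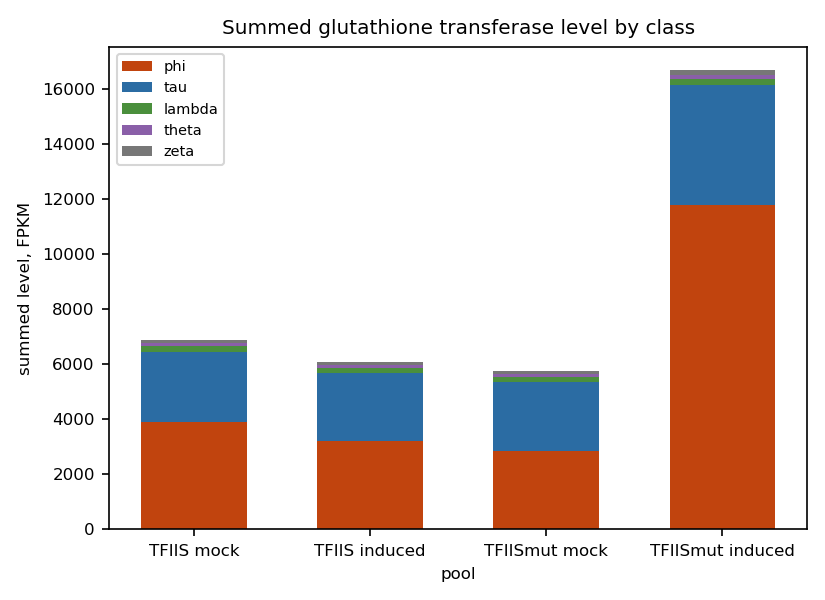
Summed level of the 46 glutathione transferase rows (vertical axis, FPKM) in each of the 4 pools (horizontal axis), stacked by class. The sum was 5739 FPKM in TFIISmut mock and 16684 FPKM in TFIISmut induced, and the phi section of the bar grew from 2829 to 11790.3 FPKM.

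Induction of the mutated protein was read within its own line. Between the induced and the mock pool, 14 of 39 eligible members were higher and 0 lower; among all eligible genes 5.51% were higher and 1.69% lower. The median difference was 0.46 over these members and 0.05 over all eligible genes. Of the 39, GSTL1, GSTF13, GSTF3, GSTU11, GSTU12 and GSTU14 were eligible only through the induced pool, and 4 of these 6 were among the higher ones. With eligibility set by the mock pool alone, 10 of 33 members were higher and 0 lower, against 2.99% and 1.79% of all genes, and the median was 0.35 against 0.02. The higher members were 5 of 10 eligible phi rows, 7 of 22 tau rows, 1 of 3 lambda rows, 0 of 3 theta rows and the single eligible zeta row. In TFIISmut induced, 25 of 39 members stood at their highest level of the 4 pools, against 43.6% of genes, and 11 were 2-fold or more above each of the other 3 pools, against 3.62% of genes. GSTL1, GSTF3, GSTU12 and GSTU14 reached 5 FPKM in TFIISmut induced alone, which fixes their order. Without such genes, 21 of 35 members were at their highest, against 41.4%, and 8 were 2-fold or more above each other pool, against 2.02%.

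**Figure D2:**
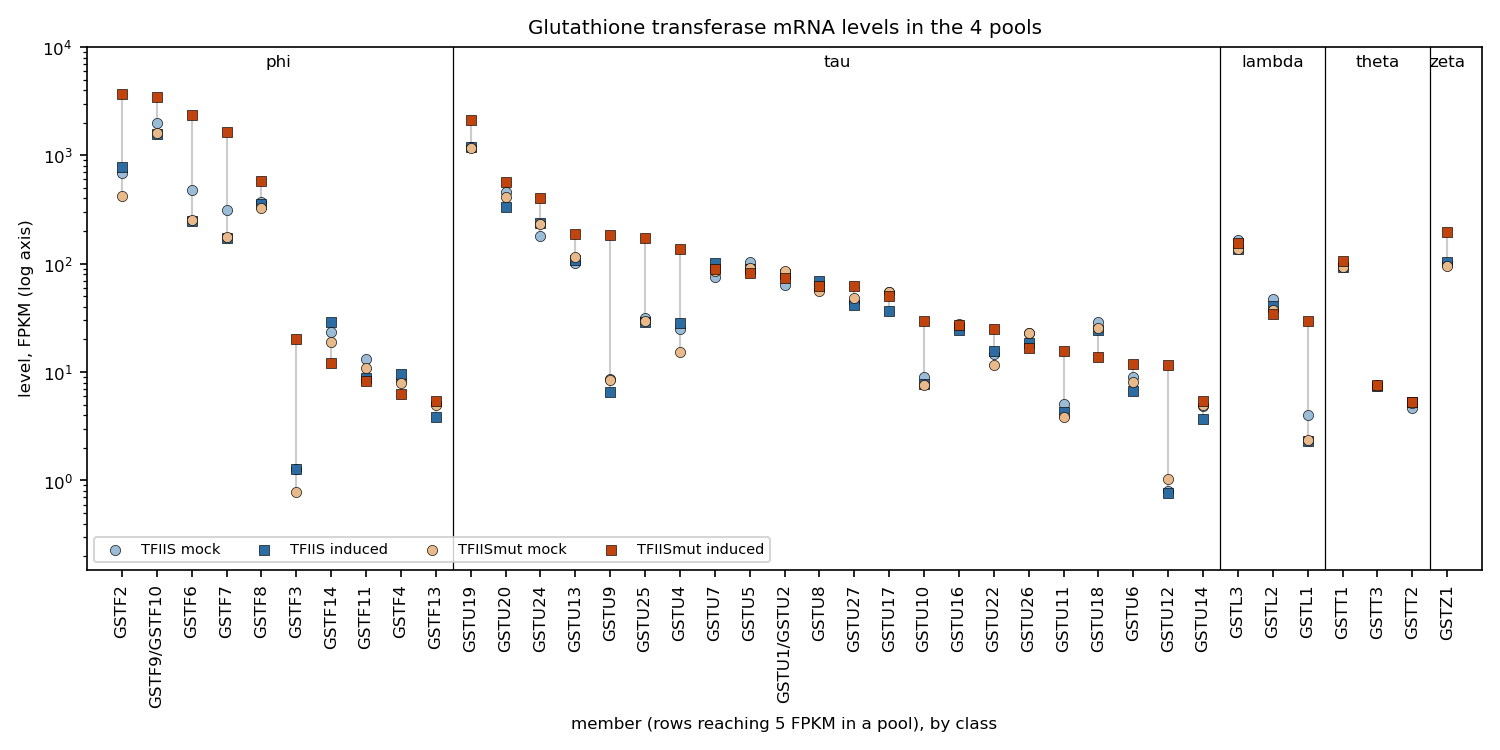
Level of each of the 39 members that reached 5 FPKM (vertical axis, FPKM on a log axis) in the 4 pools, arranged by class and by level in TFIISmut induced. Each point is 1 pooled value; GSTU9, GSTF2, GSTF6 and GSTF7 are among the members whose TFIISmut induced point stands far above the other 3, and GSTU5, GSTU7 and GSTT1 are among those whose 4 points lie together.

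The promoters of some leading members are shown first, as the 250 bases before the annotated gene start in the TAIR10.1 RefSeq assembly, 5′ to 3′ on the gene's strand. GSTU9, GSTF7, GSTU12, GSTU4 and GSTF2 are shown because they had large differences, and GSTU5 because it is a neighbour of GSTU4 in the same array that did not. Capitals mark TGACG, the core of sites bound by TGA factors, and TTGACC or TTGACT, the W-box bound by WRKY factors, on either strand. On a single strand a TGACG and a W-box cannot be the same site, since they differ in the base after TGAC.
GSTU9 (chr5:25089627-25089876, minus strand): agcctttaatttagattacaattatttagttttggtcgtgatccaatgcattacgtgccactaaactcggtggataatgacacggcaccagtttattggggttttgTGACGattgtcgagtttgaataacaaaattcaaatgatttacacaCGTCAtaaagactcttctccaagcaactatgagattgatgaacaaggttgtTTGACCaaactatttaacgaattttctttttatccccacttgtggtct
GSTF7 (chr1:659981-660230, minus strand): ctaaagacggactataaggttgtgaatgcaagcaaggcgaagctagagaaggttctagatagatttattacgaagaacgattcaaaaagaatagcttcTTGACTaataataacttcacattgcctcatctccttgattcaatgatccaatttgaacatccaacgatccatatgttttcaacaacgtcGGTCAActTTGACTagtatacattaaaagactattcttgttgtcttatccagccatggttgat
GSTU12 (chr1:26335631-26335880, minus strand): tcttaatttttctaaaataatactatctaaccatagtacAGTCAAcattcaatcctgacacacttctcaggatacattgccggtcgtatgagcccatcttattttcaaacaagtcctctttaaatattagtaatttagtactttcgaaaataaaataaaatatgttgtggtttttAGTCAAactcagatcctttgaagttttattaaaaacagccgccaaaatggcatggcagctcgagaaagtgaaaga
GSTU4 (chr2:12627892-12628141, minus strand): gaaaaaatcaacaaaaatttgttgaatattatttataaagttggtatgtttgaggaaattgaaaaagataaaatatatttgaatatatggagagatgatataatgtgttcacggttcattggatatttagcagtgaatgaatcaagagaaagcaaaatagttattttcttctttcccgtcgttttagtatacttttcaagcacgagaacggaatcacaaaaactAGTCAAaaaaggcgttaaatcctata
GSTU5 (chr2:12625791-12626040, minus strand): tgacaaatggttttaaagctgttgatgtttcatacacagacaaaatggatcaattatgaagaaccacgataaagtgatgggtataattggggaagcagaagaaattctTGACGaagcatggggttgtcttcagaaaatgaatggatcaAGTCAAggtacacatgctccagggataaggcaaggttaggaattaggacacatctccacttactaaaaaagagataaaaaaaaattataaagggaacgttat
GSTF2 (chr4:1112034-1112283, minus strand): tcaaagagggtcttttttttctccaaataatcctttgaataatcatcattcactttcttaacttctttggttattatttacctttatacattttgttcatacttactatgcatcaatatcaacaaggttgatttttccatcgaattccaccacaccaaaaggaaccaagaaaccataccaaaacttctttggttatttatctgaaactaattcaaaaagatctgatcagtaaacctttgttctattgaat

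In these windows GSTU9 had 2 TGACG cores and a W-box that begins 48 bases before the gene start. GSTF7 had 3 W-boxes. GSTU12 had 2, GSTU4 had 1 and GSTF2 had no match to either motif. GSTU5, whose level changed little, held both a TGACG core and a W-box.

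Over all members, a W-box of either form was found for 10 of the 14 higher members and 7 of the 25 other eligible members, while 28.5% of 26710 promoters of the same length held it. Among members at 5 FPKM or more in TFIISmut mock, it was found for 6 of 10 higher and 7 of 23 other members. The 4 higher members without one were GSTF2, GSTU25, GSTZ1 and the row of GSTF9 and GSTF10, for which the GSTF9 promoter was read. TGACG was found for 5 of 14 and 7 of 25 members, against 18.6% of promoters. A pair of TGACG cores at the spacing of an as-1 element was found in 1 member promoter, that of GSTU7, and in 0.0636% of promoters. GCCGCC, the GCC-box, was found for 2 of 14 and 1 of 25 members, against 1.85%, and ACGTG, the core of the abscisic acid response element, for 4 of 14 and 10 of 25, against 23.1%. The mitochondrial dysfunction motif was found with CACG as its last 4 bases in 1 of 46 member promoters, against 0.472% of promoters, and with CAAG in 0 of 46, against 0.719%. Members of an array descend from a common gene, so these promoters are not independent, and the counts were not tested. The motifs were chosen with earlier results of these data known.

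The phi class held the members with the highest levels. GSTF2 (AT4G02520; chromosome 4, 1110343 to 1112033, 3 exons), a membrane-associated enzyme that binds indole compounds such as camalexin, was at 686 FPKM in TFIIS mock, 785 FPKM in TFIIS induced, 420.1 FPKM in TFIISmut mock and 3685 FPKM in TFIISmut induced. TFIISmut induced stood far above the other 3 pools, with a difference of 3.13 from its mock, and GSTF2 moved from rank 366 to rank 8 among all genes by level. GSTF3 (AT2G02930), on chromosome 2, was at 1.27, 1.28, 0.785 and 20.4 FPKM in the same order of pools, a difference of 3.58. The coding sequences of GSTF2 and GSTF3 are 94.5% identical over 639 bases, and the sources used here do not say how reads that match both were assigned, so the level of GSTF3 beside that of GSTF2 is uncertain.

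GSTF6 (AT1G02930; chromosome 1, 661088 to 662475), which joins glutathione to an indole precursor in camalexin synthesis, was at 484 FPKM in TFIIS mock, 249.8 FPKM in TFIIS induced, 253 FPKM in TFIISmut mock and 2368 FPKM in TFIISmut induced. Its neighbour GSTF7 (AT1G02920; 658578 to 659980) was at 316, 172, 176 and 1636 FPKM. Both genes followed the same order of pools: TFIISmut induced was far above the others, TFIIS mock came next, and the remaining pools were nearly equal. The differences in the TFIISmut line were 3.22 for GSTF6 and 3.21 for GSTF7. Their coding sequences are 94.7% identical over 627 bases, so their similar course cannot be told apart from shared reads.

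The row of GSTF9 and GSTF10 was the most abundant in the 3 other pools, at 1994, 1581 and 1607 FPKM, and was at 3469.9 FPKM in TFIISmut induced, a difference of 1.11. GSTF8, an early stress marker, was at 371, 356, 329 and 575 FPKM, a difference of 0.80 that did not reach 2-fold. GSTF14 went the other way, at 23.7, 29.3, 19.0 and 12.2 FPKM, a difference of -0.60. GSTF11, a gene of aliphatic glucosinolate synthesis, was at 13.2, 8.89, 10.9 and 8.21 FPKM, GSTF4 at 8.51, 9.63, 7.95 and 6.31 FPKM, and GSTF13 at 5.14, 3.87, 4.95 and 5.42 FPKM. None of these last 4 differed by 2-fold between the pools of the TFIISmut line. GSTF5, under 5 FPKM in every pool, was at 0.696, 0.492, 0.526 and 3.61 FPKM.

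Among tau members, GSTU9 (AT5G62480; chromosome 5, 25088527 to 25089626, 3 exons) had the largest difference of the family, 4.29, rank 17 of all eligible genes. It was at 8.64 FPKM in TFIIS mock, 6.60 FPKM in TFIIS induced, 8.48 FPKM in TFIISmut mock and 184 FPKM in TFIISmut induced. GSTU4 (AT2G29460) was at 24.8, 28.1, 15.4 and 136 FPKM, a difference of 3.06. GSTU25 (AT1G17180), which with GSTU24 is known from detoxification of the explosive TNT, was at 31.9, 29.1, 29.7 and 171 FPKM, a difference of 2.49. In each of these genes the 3 other pools lay within 1.82-fold of each other and TFIISmut induced stood apart.

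GSTU12 (AT1G69920) was at 0.802, 0.768, 1.03 and 11.7 FPKM, a difference of 2.65. GSTU10 (AT1G74590) was at 9.02, 7.77, 7.68 and 29.7 FPKM, a difference of 1.82. GSTU11 (AT1G69930) was at 5.10, 4.30, 3.88 and 15.8 FPKM, a difference of 1.78. These 3 genes of low level in mock seedlings again had their high value in TFIISmut induced alone. GSTU22 was at 14.8, 15.7, 11.5 and 25.2 FPKM, a difference of 1.06 that just passed 2-fold.

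The abundant tau genes differed less. GSTU19, the most abundant of them, was at 1198, 1205 and 1172 FPKM in the 3 other pools and at 2109.7 FPKM in TFIISmut induced, a difference of 0.85. GSTU20, an enzyme of aliphatic glucosinolate synthesis, was at 457, 333, 417 and 572 FPKM. GSTU24 was at 179, 237, 232 and 408 FPKM, a difference of 0.81. GSTU13, an enzyme of indole glucosinolate metabolism, was at 102, 108, 114 and 189.9 FPKM, a difference of 0.73. All 4 were highest in TFIISmut induced, and none reached 2-fold against TFIISmut mock; GSTU24 did against TFIIS mock, at 1.19.

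The other 11 eligible tau rows also stayed within 2-fold between the pools of the TFIISmut line. GSTU6 was at 8.92, 6.69, 8.14 and 11.8 FPKM and GSTU27 at 44.0, 41.3, 48.4 and 61.8 FPKM, both highest in TFIISmut induced. GSTU5 was at 105, 88.8, 91.8 and 81.7 FPKM, GSTU7 at 75.0, 102, 85.4 and 89.8 FPKM, and the row of GSTU1 and GSTU2 at 63.8, 79.9, 85.4 and 73.6 FPKM. GSTU17, a regulator of seedling responses to light and abscisic acid, was at 54.9, 37.0, 54.6 and 50.5 FPKM. Its neighbour GSTU18 had the lowest difference of the family, -0.83, at 28.9, 24.4, 25.3 and 13.8 FPKM, and GSTU26 was at 23.0, 18.6, 22.7 and 16.6 FPKM. The differences of GSTU8, GSTU14 and GSTU16 were 0.16, 0.10 and -0.05. GSTU3, GSTU15, GSTU21, GSTU23 and GSTU28 stayed under 5 FPKM in every pool; of these GSTU3 was at 0.312, 0.242, 0.199 and 4.52 FPKM, and the others were between 0.029 and 3.46 FPKM.

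In the lambda class, GSTL1 (AT5G02780; chromosome 5, 630748 to 632792) was at 3.99, 2.29, 2.35 and 29.9 FPKM, a difference of 3.21. Its neighbour GSTL3 was at 165, 137, 138 and 154 FPKM and GSTL2, on chromosome 3, at 47.3, 41.1, 37.6 and 34.3 FPKM. The lambda member of lowest level was thus the only member of its class to pass 2-fold. The theta genes, whose enzymes have glutathione peroxidase activity, hardly differed: GSTT1 was at 98.7, 94.1, 93.9 and 107 FPKM, GSTT3 at 7.61, 7.39, 7.38 and 7.67 FPKM, and GSTT2 at 4.71, 5.35, 5.21 and 5.27 FPKM. GSTZ1, the maleylacetoacetate isomerase of tyrosine breakdown, was at 102, 103, 95.1 and 197 FPKM, a difference of 1.04 that just passed 2-fold. Its neighbour GSTZ2, with a coding sequence 87.8% identical, was at 0.375 to 0.848 FPKM.

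Most of the family lies in tandem arrays, defined as members whose starts follow each other within 10 kb: 33 of 46 rows fall into 11 arrays. Neighbours did not share a course in several of them. One array on chromosome 2 runs from GSTU7, whose annotated start is 12617936, to the row of GSTU1 and GSTU2. In it GSTU4 had a difference of 3.06 and the other 4 eligible rows lay between -0.21 and 0.49. GSTU3, the direct neighbour of GSTU4, stood at 2.20 with a level under 5 FPKM in every pool. In the array of GSTU24, GSTU25 and GSTU26 on chromosome 1 (5869543 to 5876620), the differences were 0.81, 2.49 and -0.43 in that order. The coding sequences of GSTU24 and GSTU25 are 80.5% identical. In the array of GSTF7 to GSTF4 (658578 to 666471), GSTF7 and GSTF6 stood at 3.21 and 3.22, GSTF5 at 1.60 with a low level and GSTF4 at -0.29. GSTU12 and GSTU11, neighbours on chromosome 1, were both higher, at 2.65 and 1.78. The 3 theta genes form an array in which the differences were 0.01 to 0.18.

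**Figure D3:**
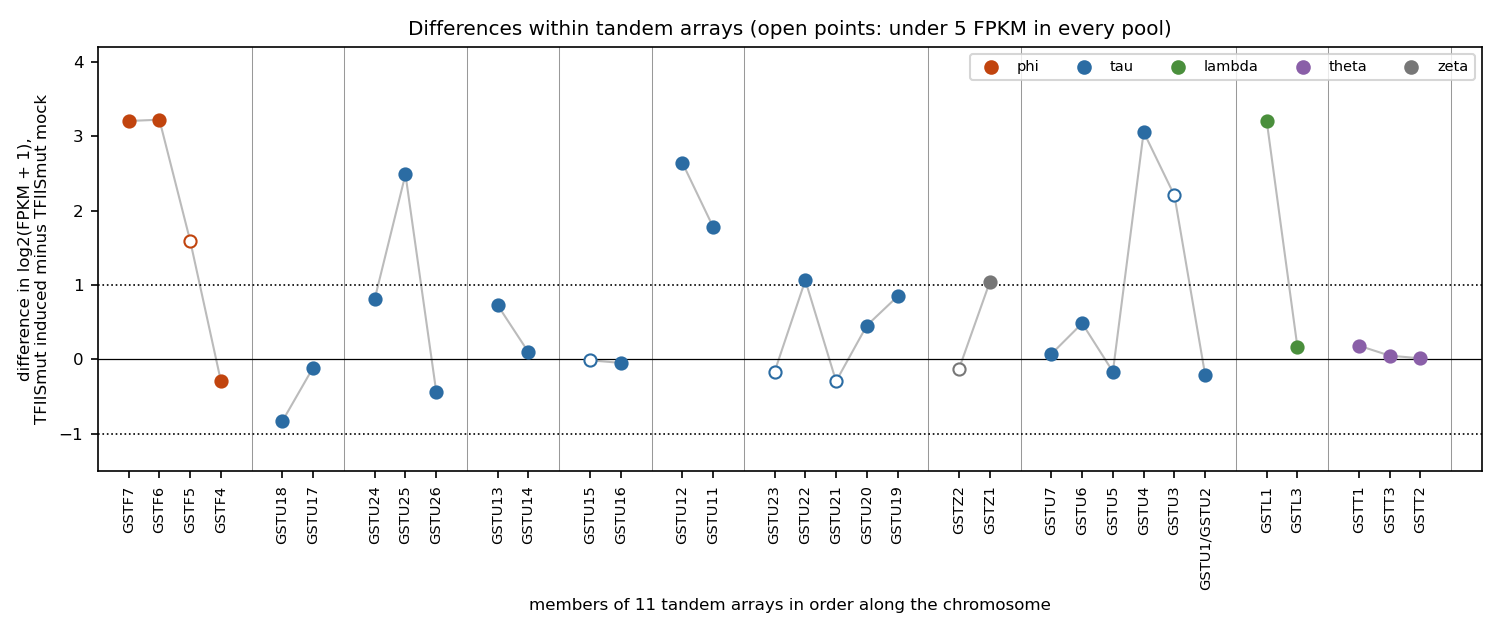
Difference in log2(FPKM + 1) between TFIISmut induced and TFIISmut mock (vertical axis) for the 33 rows in 11 tandem arrays, ordered along the chromosome (horizontal axis); thin vertical lines separate arrays, and dotted lines mark 2-fold, and open points are members under 5 FPKM in every pool. GSTU4 at 3.06 and GSTU25 at 2.49 stand above their neighbours, while GSTF7 and GSTF6 stand together. The open point beside GSTU4 is GSTU3, at 2.20.

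In the line that received the same estradiol but makes the intact protein, 0 of 35 eligible members were higher and 0 lower in the induced pool than in its mock, against 0.69% and 0.789% of all genes. The differences ran from -0.95 to 0.44 with a median of -0.09, against 0.02 over all genes. Below 0 lay 22 of 35 members, against 6479 of 14203 genes. With 5 FPKM required in TFIIS mock, 0 of 34 were higher and 0 lower, against 0.432% and 0.807%. The lowest were GSTF6 at -0.95 and GSTF7 at -0.87, both of which were also lower in TFIISmut mock than in TFIIS mock, by -0.93 and -0.84. Against TFIISmut mock, TFIIS induced differed by -0.02 for GSTF6 and -0.04 for GSTF7, so among the 3 pools other than TFIISmut induced it was TFIIS mock that stood apart for these genes. Over all members, TFIIS induced minus TFIISmut mock gave 17 of 33 below 0, against 6676 of 14064 genes, and a median of -0.01. The lean below 0 in the TFIIS line thus depends on the mock pool used. The highest differences from TFIIS mock were those of GSTU7 at 0.44 and GSTU24 at 0.41. Subtracting the effect in the TFIIS line from that in the TFIISmut line gave 4.63 for GSTU9, 4.17 for GSTF6, 4.08 for GSTF7, 3.81 for GSTL1, 3.58 for GSTF3 and 2.94 for GSTF2. Of these, GSTL1 and GSTF3 were under 5 FPKM in both TFIIS pools and so were not among the 35 eligible members.

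**Figure D4:**
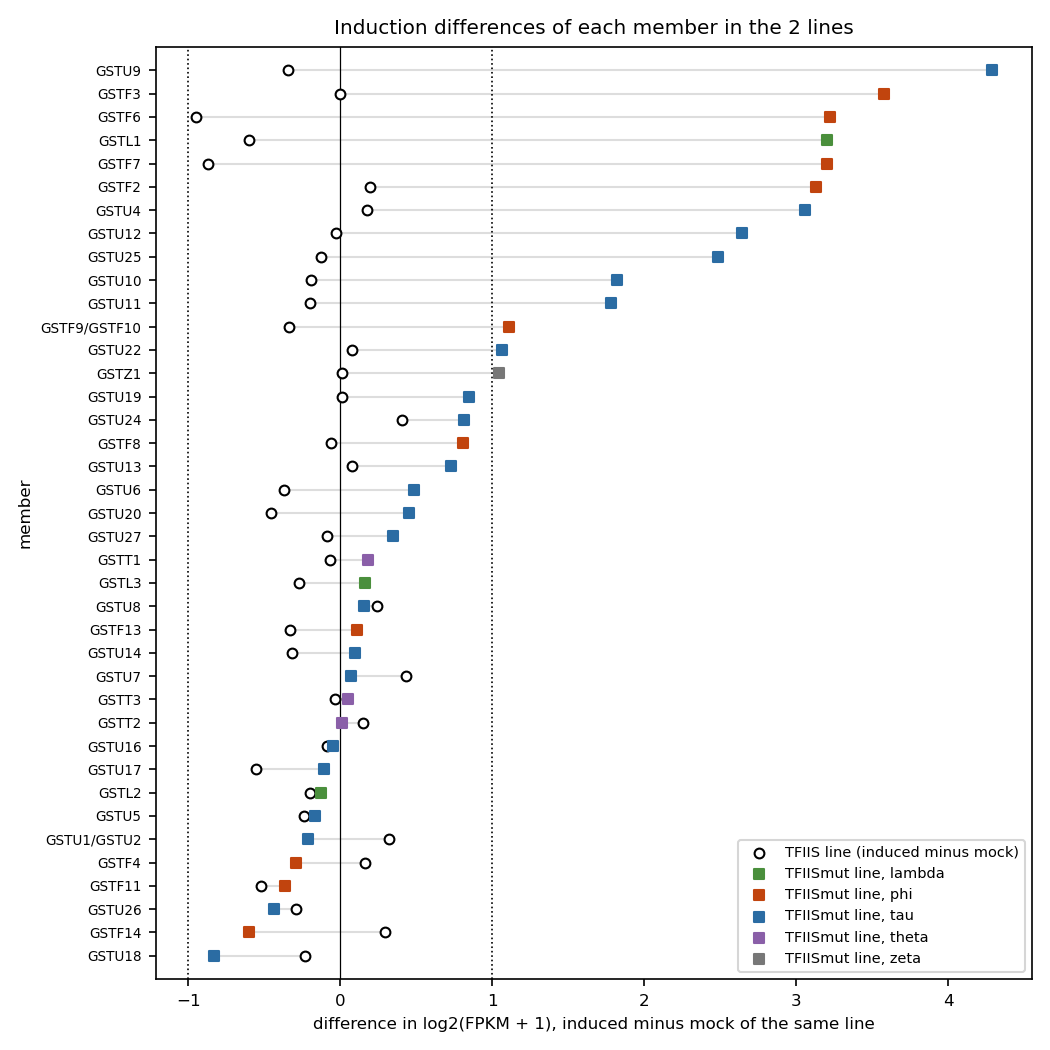
Difference in log2(FPKM + 1) between induced and mock pools (horizontal axis) for each of the 39 members that reached 5 FPKM (vertical axis), as filled squares for the TFIISmut line, coloured by class, and open circles for the TFIIS line. The open circles lie between -0.95 and 0.44, and the squares run from -0.83 for GSTU18 to 4.29 for GSTU9.

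For TFIISmut induced against TFIIS induced, where both lines had received estradiol, 12 of 39 members were higher and 1 lower, against 5.34% and 2.57% of all genes, with a median of 0.65 against 0.03. With 5 FPKM required in TFIIS induced, 8 of 33 were higher and 1 lower, against 2.89% and 2.72%. This comparison shares the TFIISmut induced pool with the one above. Its pools also differ in the level read for the TFIIS gene, at 742 FPKM in TFIIS induced and 87.0 FPKM in TFIISmut induced. That row does not tell transcripts of the intact and the mutated form apart. The 12 are the 14 named there without GSTU22, at 0.65, and GSTZ1, at 0.93. The largest differences were 4.61 for GSTU9, 3.24 for GSTF6 and GSTF7, 3.23 for GSTL1 and GSTF3, 2.84 for GSTU12 and 2.52 for GSTU25. GSTU4 and GSTF2, which were lower in TFIISmut mock than in both TFIIS pools, each differed by 2.23. GSTF14 was the lower member, at -1.19.

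The lines were also compared without estradiol. In the TFIISmut mock pool, 0 of 35 members were higher and 0 lower than in TFIIS mock, against 0.248% and 0.787% of all genes. The differences ran from -0.93 to 0.41 with a median of -0.10, against 0.01 over all genes. With 5 FPKM required in TFIIS mock, 0 of 34 were higher and 0 lower, against 0.166% and 0.799%. All 9 eligible phi rows were below 0, from GSTF6 at -0.93, GSTF7 at -0.84 and GSTF2 at -0.71 to GSTF13 at -0.05. Of all genes, 6726 of 14113 were below 0. GSTU4 was at -0.65, and the row of GSTU1 and GSTU2 had the highest difference, 0.41. TFIIS mock also enters the comparison within the TFIIS line. Between TFIIS induced and TFIISmut mock, 4 of 8 eligible phi rows were below 0, so the phi lean depends on the TFIIS pool used.

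The remaining pairs of pools share their pools with the comparisons above. Between TFIISmut induced and TFIIS mock, 12 of 39 members were higher and 1 lower, against 4.73% and 2.39% of all genes. The lower one was GSTU18, at -1.02. With 5 FPKM required in TFIIS mock, 9 of 34 were higher and 1 lower, against 2.82% and 2.52%. Between TFIIS induced and TFIISmut mock, 0 of 33 members were higher and 0 lower, against 0.633% and 0.256%. In TFIISmut induced 7 members stood at their lowest level of the 4 pools, against 36.1% of genes: GSTF4, GSTF11, GSTF14, GSTL2, GSTU5, GSTU18 and GSTU26. None of them was 2-fold below all 3 other pools, against 0.795% of genes.

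Other genes of glutathione metabolism were read beside the family; those named without passing 2-fold were chosen after their values were seen. None of 9 eligible genes of glutathione synthesis and breakdown passed 2-fold between TFIISmut induced and TFIISmut mock, and their median difference was 0.33. Among all eligible genes 5.51% were higher and 1.69% lower, with a median of 0.05. At those shares, 0 in lists as short as those read here does not set them apart from all genes. GSH1, the first enzyme of glutathione synthesis, was at 194 FPKM in TFIIS mock, 204 FPKM in TFIIS induced, 216 FPKM in TFIISmut mock and 272 FPKM in TFIISmut induced. GSH2, the second, was at 108, 129.8, 112 and 134 FPKM. GSH1 and GSH2 thus stayed within 2-fold in every pool. None of 10 genes of the glutathione redox cycle passed either, with a median of 0.39; the largest difference was that of GR1, a glutathione reductase, at 0.92. Of 11 genes of sulfate uptake and cysteine synthesis 0 passed, with a median of 0.12, and APS1, an ATP sulfurylase, had the largest difference at 0.97. Against TFIIS induced, 2 of these 11 were higher in TFIISmut induced, beside 5.34% of all genes. They were APS1 at 1.10 and the APS reductase gene APR1 at 1.02.

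Among 4 transporters of glutathione and its conjugates, ABCC3, a vacuolar carrier of conjugates, was higher, at 27.5, 24.6, 33.2 and 128 FPKM in the 4 pools, a difference of 1.92. The related carriers ABCC1 and ABCC2 were at -0.32 and -0.66, and CLT1, a plastid exporter, at -0.34. Against TFIIS induced, ABCC2 was lower in TFIISmut induced by 2-fold, at -1.12, and ABCC3 was higher, at 2.34. Of 10 eligible detoxification genes outside the family, 6 were higher and 1 lower in TFIISmut induced than in TFIISmut mock, with a median of 1.56. Beside these stand 5.51% higher, 1.69% lower and a median of 0.05 over all genes. The list was chosen with earlier results of these data known, so the contrast is not a test. The largest differences were 3.33 for DTXL1 (AT2G04050), a MATE family transporter, 2.83 for the cytochrome P450 gene CYP81D8, 2.12 for the glycosyltransferase gene UGT74E2, and -2.15 for CYP81D11. DTXL1 was at 5.77, 7.36, 16.4 and 174 FPKM, and was already higher in TFIISmut mock than in TFIIS mock, by 1.36. CYP81D8 was at 18.5, 20.1, 13.4 and 101 FPKM and UGT74E2 at 35.2, 50.9, 46.4 and 205 FPKM. Of 11 genes for TGA factors, the cofactor SCL14 and related NAC factors that control detoxification genes, 0 passed, and their median was 0.14. In the TFIIS line no gene of these 6 lists passed 2-fold, against 0.69% higher and 0.789% lower among all genes.

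**Figure D5:**
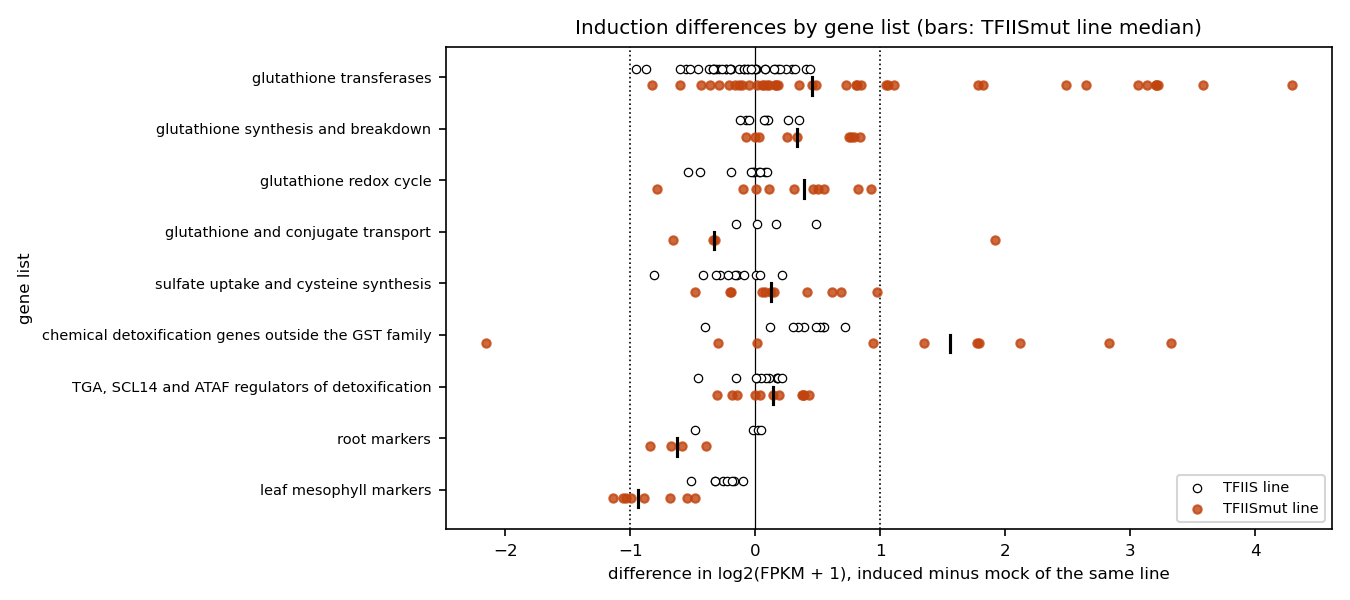
Difference in log2(FPKM + 1) between induced and mock pools (horizontal axis) for the eligible members of each gene list (vertical axis), filled for the TFIISmut line and open for the TFIIS line, with a bar at the TFIISmut median. The medians are 0.46 for the transferases, 1.56 for detoxification genes outside the family and -0.94 for leaf mesophyll markers.

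Markers of tissues were read in the same pools. All 8 leaf mesophyll markers were below 0 between TFIISmut induced and TFIISmut mock, with 3 lower by 2-fold, against 1.69% of all genes, and a median of -0.94, and their levels summed to 13032 FPKM in the mock pool and 6966 FPKM in the induced one. In the TFIIS line the sum was 13066 and 10724 FPKM. All 4 eligible root markers were below 0, with a median of -0.63, and the 8 listed markers summed to 59.2 and 35.3 FPKM in the TFIISmut line and 58.3 and 54.7 FPKM in the TFIIS line. No marker was at 0 in any pool. Their part in the differences of the transferases was not tested, and in whole seedlings fewer cells of a type and less RNA per cell cannot be told apart.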

How the data were processed

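RNA of 12 seedling libraries, 3 per condition, was sequenced. The authors deposited a single table with 1 value per gene and condition, here read as FPKM from its decimals and layout. Per the submitters' processing notes, Bowtie2 2.3.5 was among the tools. The sources used here do not give the quantifier, the genome build, the annotation or the way the 3 libraries were combined. Depth is unknown, so no interval or floor was computed, and with 1 value per condition no test was made.

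From the 32705 rows, 38 rows sharing 19 repeated identifiers were left out. Genes at 0 in a compared pool were left out of that comparison. Counts use a difference of 1 in log2(FPKM + 1) and a larger level of 5 FPKM or more. All members that reached 5 FPKM are named or counted, as the rule for named genes has it, with up to 4 members of each of the 8 other lists (79 genes). The members, lists and motifs were chosen with earlier results of these data known. Positions, promoters and coding sequences come from TAIR10.1 by gene identifier, and all 46 rows matched. Only 7 of the 46 rows had the same start coordinate in the deposited positions. For most rows the gene bounds behind the levels are thus not those used for the promoters. Promoters are printed for 6 of the 46 rows. The counting step was tested on simulated data. Python 3.11.15, pandas 2.3.3, numpy 2.4.6, matplotlib 3.10.9 and Biopython 1.88 were used.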

Additional observations from a re-analysis of the deposited data

Results flagged for a closer look

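In 7 members that passed 2-fold in the TFIISmut line, the induction effects of the lines had opposite signs and both exceeded 0.18 in size. That value is the robust SD over eligible genes of the difference between the mock pools. This SD measures the spread between genes and not between libraries, and TFIIS mock enters both it and the effects. In the TFIIS line GSTU10, at -0.19, and GSTU11, at -0.20, barely exceeded it, and GSTL1 was under 5 FPKM in both pools. GSTU25 and GSTU12 also had opposite signs, but at -0.13 and -0.03 in the TFIIS line they did not exceed it. The share of all genes with such a pattern was not computed, so the count of 7 does not set the family apart. Each line has 1 pooled value per condition, so the difference was not tested. The difference of the effects, TFIISmut minus TFIIS, was 4.63 for GSTU9, 4.17 for GSTF6, 4.08 for GSTF7 and 3.81 for GSTL1. It was 2.01 for GSTU10, 1.98 for GSTU11 and 1.44 for the row of GSTF9 and GSTF10. In the TFIIS line these 7 members were between -0.95 and -0.19. For GSTF6 and GSTF7 the value rests on the TFIIS mock pool, as given above. The same holds for others: against TFIISmut mock, TFIIS induced differed by -0.02 for GSTL1 and the row of GSTF9 and GSTF10. It differed by 0.01 for GSTU10 and 0.12 for GSTU11. For GSTU9 it was still lower, at -0.32.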

How the results depend on the processing

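No paired analysis was possible because every condition has a single pooled value with no replicate number; leaving out single libraries was not run either. The number of higher members between TFIISmut induced and TFIISmut mock ran from 10 to 16 around the reported 14 over all alternatives, and 11 members passed under a 3-fold rule: GSTU9, GSTF2, GSTF3, GSTF6, GSTF7, GSTL1, GSTU4, GSTU10, GSTU11, GSTU12 and GSTU25. The row of GSTF9 and GSTF10, at 0.98, GSTU22, at 0.94, and GSTZ1, at 0.91, fell short when organelle rows were left out and pools rescaled to a common sum, and with the TFIIS mock pool as control, at 0.80, 0.72 and 0.94, where GSTU24 passed. GSTZ1 also fell short with pools at a common median, and GSTZ1 and GSTU22 under quantile normalization, where GSTU19 passed. Single values of called members kept their side of the threshold in 214 of the computed cases and fell below it in 14, and 0 changed sign. Part of this was fixed in advance. Another FPKM minimum, or leaving out rows that name several genes, cannot move a single value, and the 3-fold rule cannot change a sign. With no minimum FPKM the median of the TFIISmut comparison was 0.27. Counts of lower members were 0 or 1 as reported and moved as follows: with the TFIIS mock pool as control 1 was lower in TFIISmut induced, GSTU18, and under the 3-fold rule 0 were lower between the induced pools. GSTF6 was the 1 lower member between the mock pools under quantile normalization and without organelle rows. Without organelle rows 2 members, GSTF6 and GSTF7, were lower in the TFIIS line and the median there was -0.28, a scaling that also shifted the median of all genes to -0.15. The settings that ask for 5 FPKM in the control pool, or in a pool other than TFIISmut induced, were added after seeing the data. The cause of these shifts was not tested.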
